A study of Homo sapiens with 42 samples.

Results

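FLT3, the receptor whose inhibitor quizartinib was given to these cells, and 8 other hematopoietic cytokine receptors or receptor subunits (KIT, CSF1R, CSF2RA, CSF2RB, CSF3R, IL3RA, IL6R and IL6ST) were followed in MOLM-13 cells, a human acute myeloid leukemia (AML) line in which part of FLT3 is duplicated in tandem (FLT3-ITD). The members are the rows of the gene count table that bear these 9 names, out of 57353 gene names. All 9 were found, each in 1 row, and 8 of them were among the 12939 genes with enough counts to be tested. KIT was not. The cells had been kept for 12 hr in 7 conditions with 3 replicates each: in regular medium (RPMI) with vehicle, with 3 nM quizartinib (AC220) or with quizartinib and 10 nM everolimus (combo), and in RPMI mixed with conditioned medium of the HS-5 human bone marrow stromal cell line (hBMSC-CM) with vehicle, quizartinib, everolimus alone or combo. Everolimus is an inhibitor of mTOR, a kinase that controls translation. From each condition, input (total) RNA and the RNA of heavy polysomes, messages loaded with several ribosomes, were sequenced separately, which gave 42 libraries in 14 groups of 3. All groups are this 1 cell line and share its FLT3-ITD, and the counts cannot tell the mutant FLT3 messages from the normal ones. Everolimus alone in RPMI is not analysed here, and the study calls its replicates biological. The labels themselves do not say that they were separate cultures, and the p-values below measure the spread between these samples.

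Cytokine receptors let blood progenitors read the growth factors of the bone marrow. FLT3, KIT and CSF1R are receptor tyrosine kinases, closely related in build, that bind FLT3 ligand, stem cell factor and M-CSF. IL3RA (CD123) and CSF2RA bind IL-3 and GM-CSF and signal through the common beta chain CSF2RB, CSF3R binds G-CSF, and IL6R binds IL-6 and signals through IL6ST (gp130). CSF1R, CSF3R and CSF2RA are typical of the monocyte and granulocyte lineages, whereas FLT3 and KIT are typical of progenitors. In FLT3-ITD leukemia the FLT3 kinase is active without ligand, and IL3RA and FLT3 are usually found at the surface of the blasts.

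The genes lie on 6 chromosomes (GRCh38, GENCODE release 44, the assembly of the authors' hg38 alignment). FLT3 (ENSG00000122025) covers chr13:28003274-28100592 on the minus strand, CSF1R (ENSG00000182578) chr5:150053291-150113372 on the minus strand and KIT (ENSG00000157404) chr4:54657267-54740783 on the plus strand. IL3RA (ENSG00000185291, chrX:1336616-1382689) and CSF2RA (ENSG00000198223, chrX:1268800-1310381) are neighbours on the plus strand of the pseudoautosomal region of X and Y, with 1 row each in the table. CSF2RB (ENSG00000100368) is at chr22:36913628-36940439 on the plus strand, CSF3R (ENSG00000119535) at chr1:36466043-36483278 on the minus strand, IL6R (ENSG00000160712) at chr1:154405193-154469450 on the plus strand and IL6ST (ENSG00000134352) at chr5:55935095-55995022 on the minus strand. Exons of IL6ST overlap a long noncoding RNA on the opposite strand over 797 bases, 6.61% of its exonic length, and the sources used here do not say whether strand was used in counting. CSF2RB, IL6R and IL6ST have a pseudogene each (CSF2RBP1, IL6RP1, IL6STP1), which could share reads with them.

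The stretch just before the start is shown for FLT3 and IL6R, whose levels moved most closely together, for IL3RA and for CSF1R, which had the largest change of the 8 tested receptors (RefSeq, GRCh38.p14, each read 5′ to 3′ on the strand of its gene). Of the 250 bases before the RefSeq start, the parts that no annotated exon covers are printed. Capitals mark matches, sought on both strands, to GAGGAA, the core of many PU.1 and ETS sites, to TTCNNNGAA, the STAT palindrome, to CACGTG, the E-box, and to TGANTCA, an AP-1 type site. FLT3 is shown at chr13:28100593-28100826 (minus), IL6R at chr1:154405093-154405192 (plus), IL3RA at chrX:1336535-1336615 (plus) and CSF1R, before the more distant of its 2 starts, at chr5:150113373-150113615 (minus).
FLT3: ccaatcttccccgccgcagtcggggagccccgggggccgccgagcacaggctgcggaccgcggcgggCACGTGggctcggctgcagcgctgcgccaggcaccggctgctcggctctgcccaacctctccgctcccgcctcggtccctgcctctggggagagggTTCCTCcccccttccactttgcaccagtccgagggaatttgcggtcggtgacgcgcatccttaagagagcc
IL6R: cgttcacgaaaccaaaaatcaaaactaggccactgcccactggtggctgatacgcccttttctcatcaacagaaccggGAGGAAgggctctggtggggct
IL3RA: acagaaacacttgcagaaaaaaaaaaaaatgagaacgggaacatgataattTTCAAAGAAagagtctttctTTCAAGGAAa
CSF1R: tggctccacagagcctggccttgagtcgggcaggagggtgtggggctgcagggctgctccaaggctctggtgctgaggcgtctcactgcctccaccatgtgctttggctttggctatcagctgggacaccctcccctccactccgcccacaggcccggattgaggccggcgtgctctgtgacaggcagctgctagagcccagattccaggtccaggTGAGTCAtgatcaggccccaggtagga
The FLT3 window holds 1 GAGGAA and 1 CACGTG. The IL6R window holds 2 GAGGAA, of which the one in the unprinted part is not shown, the IL3RA window 2 TTCNNNGAA, and the CSF1R window 1 TGANTCA. CSF2RA also holds 2 GAGGAA in its window, and so does CSF1R before its nearer start. Over 35114 RefSeq promoter windows of the same length, GAGGAA occurs in 23.6%, TTCNNNGAA in 6.57%, TGANTCA in 6.57% and CACGTG in 6.35%. These matches describe the sequence and say nothing of which factor was bound. Which of the 2 CSF1R starts these cells used was not tested, so the printed window may not be the one that served them.

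The libraries held 19.4 to 37.2 M counted reads (input) and 21.5 to 38.8 M (polysome), so that 3 counts, taken as the floor, correspond to a CPM (count scaled to a common library size) of 0.076 to 0.15. Levels below are CPM scaled by edgeR's TMM factors, which were 1.06 to 1.25 in input and 0.705 to 1.04 in polysome libraries. Polysome levels are relative to the other messages after this scaling. They are neither plain shares of the polysome library nor ribosomes per message. Where polysome levels are set against input levels, the point of no difference depends on these factors. The study reports that quizartinib, alone or with everolimus, lowered the RNA yield, and more so in heavy polysomes than in input. A higher level in either fraction is therefore not in itself more message, and rises and falls below are relative to the other messages. In these bulk samples, fewer cells with a transcript and less transcript per cell cannot be told apart. The 8 myeloid markers were all detected. They sum to 1640 to 2150 CPM in the input libraries of RPMI and to 2150 to 2960 in those of hBMSC-CM. This sum moves with the medium and also with drug. In RPMI it is 1720 to 1830 with vehicle and 1840 to 2150 with quizartinib, and in hBMSC-CM 2150 to 2580 and 2710 to 2960. Everolimus alone gives 2700 to 2800. The combo ranges (1640 to 2070 in RPMI, 2330 to 2650 in hBMSC-CM) overlap those of vehicle. The 10 stromal markers sum to 1.02 to 4.79 CPM in RPMI with vehicle and 9.75 to 41.6 with quizartinib. In hBMSC-CM the sums are 0.584 to 2.52 and 5.27 to 24.6. The sum thus moves with quizartinib, but at its highest it rests mainly on COL1A1. COL1A1 reaches 38.8 CPM in input RNA, COL6A1 4.63 and none of the others more than 2, while 3 (COL3A1, LUM and POSTN) are at 0 in all libraries. The T cell markers CD3E and CD3D sum to 0 to 1.46 CPM in input RNA. The part of these lists in the results was not tested. The 3 input and 3 polysome libraries of everolimus alone stand apart in that they differ much less from each other than other replicates do, with a biological coefficient of variation of 0.0716 in input and 0.138 in polysome RNA against 0.181 to 0.296 and 0.293 to 0.385 in the other groups. They still differ beyond counting noise. Whether they came from separate cultures is not given by the labels and was not tested. The p-values of comparisons with everolimus alone may therefore not measure the spread between cultures. Below, a culture means the input and polysome libraries of 1 condition and 1 replicate number. Across the other 6 conditions, libraries of the same replicate number deviate together, in all 15 pairs of groups in each fraction. For comparisons among those 6 conditions a second fit, with the replicate number as a block within each fraction and the everolimus libraries left out, is therefore given wherever it changes a call, and is named the blocked fit.

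**Figure D1:**
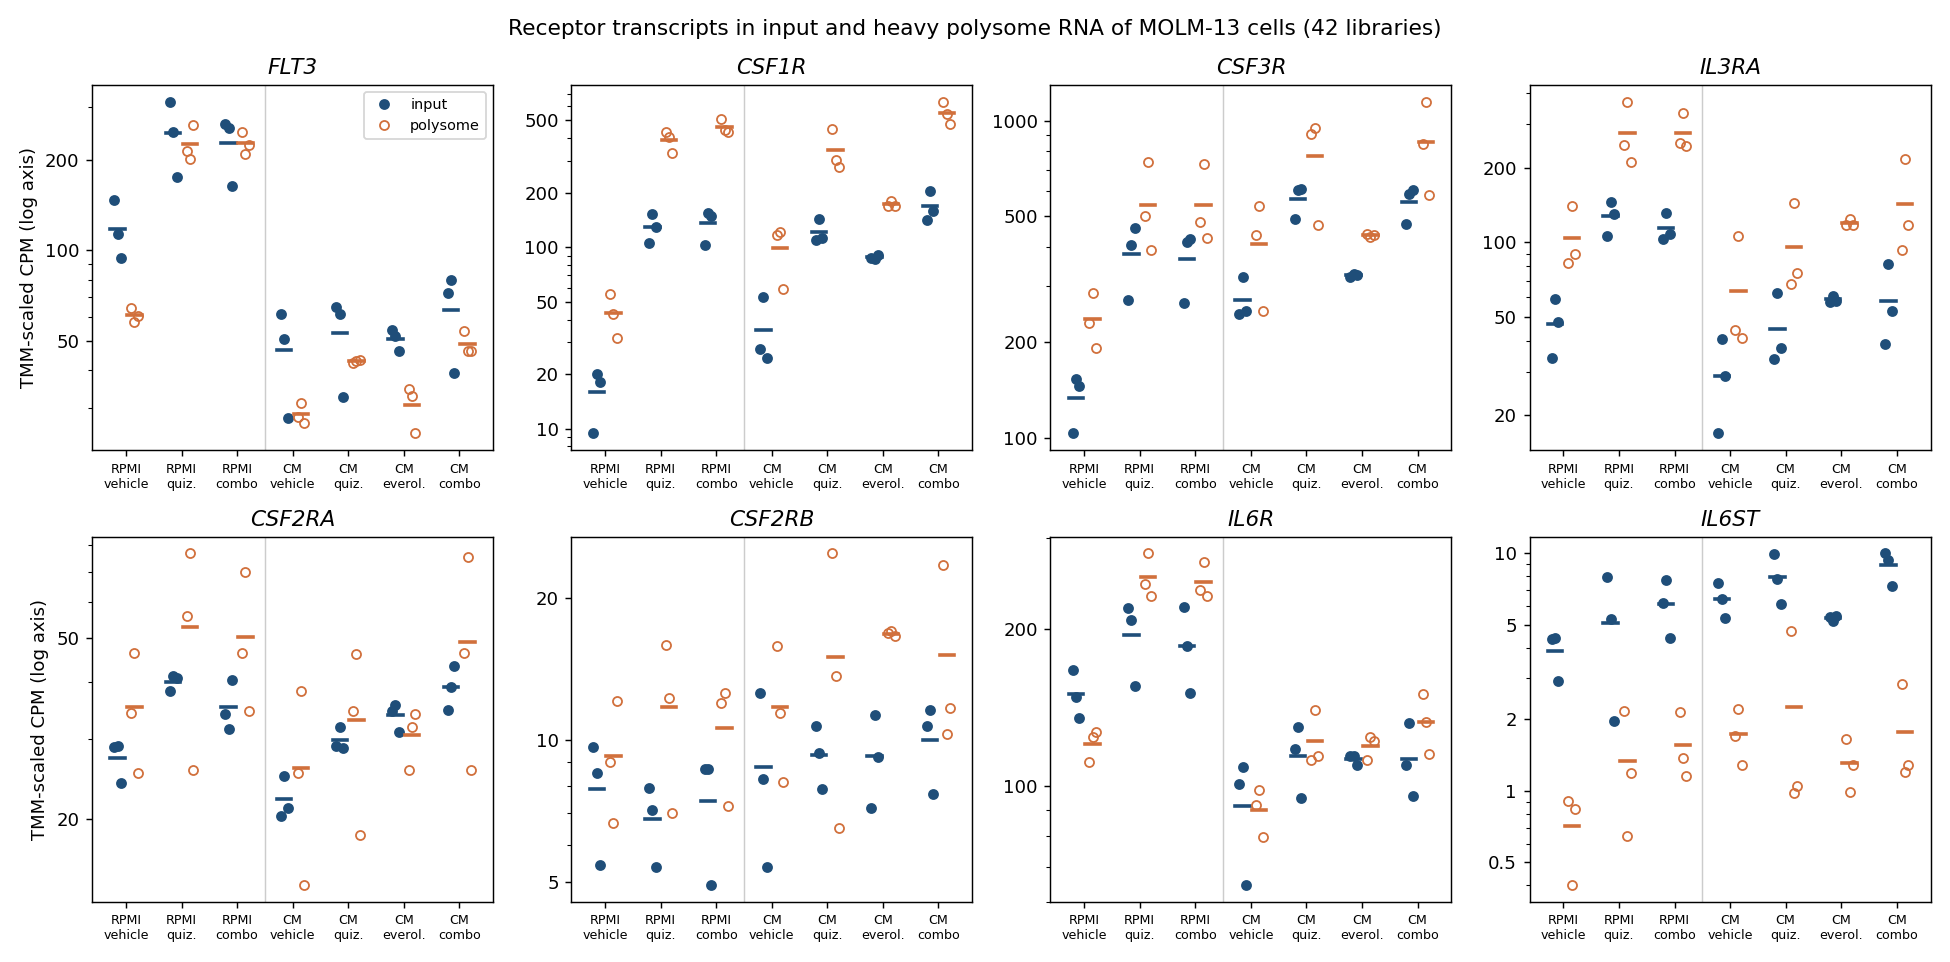
TMM-scaled CPM (log axis, a scale of its own for each gene) of the 8 tested receptors in the 7 conditions. Filled blue points are input libraries, open orange points polysome libraries and bars the means of 3, with RPMI left and hBMSC-CM (CM) right of the grey line. FLT3 is lower in all 12 input libraries of hBMSC-CM than in any of RPMI, and CSF1R rises from 9.44 to 20 CPM with vehicle in RPMI to over 100 with quizartinib.

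Which receptors these cells transcribe most is best read per length. In input RNA of RPMI with vehicle, the level per kilobase of merged exons was 28.4 ± 6.39 CPM (SD, n = 3) for FLT3, 27.4 ± 7.23 for IL3RA, 21.5 ± 2.3 for IL6R and 12.6 ± 2.54 for CSF3R. It was 6.65 ± 0.684 for CSF2RA, 3.08 ± 1.1 for CSF1R, 1.58 ± 0.437 for CSF2RB, 0.323 ± 0.0705 for IL6ST and 0.00878 ± 0.00648 for KIT. The ranges of FLT3 (22.7 to 35.3), IL3RA (20 to 34.4) and IL6R (19.3 to 23.9) overlap, so these 3 cannot be ranked, whereas CSF3R (9.72 to 14.4) lies below them and CSF2RA below CSF3R. On the longest transcript in place of the merged exons, CSF3R stands at 22 ± 4.42 and IL6R at 26 ± 2.79, so that the place of CSF3R depends on which transcript is counted. Upon quizartinib in RPMI the order was led by IL3RA (74.5 CPM per kilobase) and FLT3 (59), followed by CSF3R (35.7), IL6R (27.8) and CSF1R (25.1). In hBMSC-CM, CSF3R led with vehicle (25.6, against 16.9 for IL3RA, 13.1 for IL6R, 11.2 for FLT3 and 6.82 for CSF1R) and with quizartinib (53.5), where FLT3 came after IL3RA (26.1), CSF1R (23.7) and IL6R (16.3) at 12.8. In these orders FLT3 and IL3RA overlap upon quizartinib in RPMI (42.3 to 75.3 and 62 to 85.4), as do CSF3R, IL6R and CSF1R there (25.7 to 43.2, 22.3 to 31.5 and 20.6 to 29.5). In hBMSC-CM with vehicle CSF3R (23.1 to 30.2) overlaps IL3RA (9.88 to 23.8), and IL3RA, IL6R (9.22 to 15.6) and FLT3 (6.64 to 14.7) overlap each other, as do FLT3 and CSF1R (4.8 to 10.3). With quizartinib there, CSF3R (46.1 to 57.4) lies above the rest, while IL3RA (19.7 to 36.7) overlaps CSF1R (21.4 to 27.8) and IL6R (13.6 to 18.6) overlaps FLT3 (7.84 to 15.6). The signal chains were far below their partners, CSF2RB at 1.37 to 1.87 CPM per kilobase below IL3RA and CSF2RA, and IL6ST at 0.323 to 0.659 below IL6R, in each of these 4 groups.

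The comparison of quizartinib with vehicle asks how FLT3 inhibition changes the transcripts, in RPMI and in hBMSC-CM. In RPMI, 4 of the 8 tested receptors rose in input RNA and none fell, where 34.6% of all genes were called at an adjusted p under 0.05 (edgeR quasi-likelihood test, Benjamini-Hochberg over all genes tested). In hBMSC-CM 2 of 8 rose and none fell, against 12.3% of all genes. The blocked fit called 6 and 5 of 8, against 54.6% and 34.9% of all genes. The 2 groups did not overlap for 5 of 8 receptors in RPMI and 3 of 8 in hBMSC-CM, against 55.7% and 34.1% of all genes. Groups without overlap are therefore common here. The median log2 change of the 8 receptors was 0.81 in RPMI and 0.38 in hBMSC-CM, where that of all genes was 0.08 and 0.01. The difference between the quizartinib effects in the 2 media was called for none of the 8 in edgeR, limma voom or DESeq2, with 2 at an unadjusted p under 0.05 and 1.96% of all genes called. The blocked fit called it for 3 of 8, against 9.83%.

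The comparison of hBMSC-CM with RPMI asks what the stromal medium changes. With vehicle, 3 of 8 receptors passed (1 higher, 2 lower), where 1.51% of all genes did. Under quizartinib 3 of 8 fell and none rose (8.16% of all genes called), and under combo 2 of 8 fell and none rose (5.36%). The blocked fit called 5, 5 and 4 of 8, against 7.03%, 23.1% and 13.9%. The 2 groups did not overlap for 5, 5 and 4 of 8, against 16.1%, 29.8% and 21.5% of all genes. Of all genes called, 168 were higher and 27 lower in hBMSC-CM with vehicle, 791 and 265 under quizartinib and 532 and 161 under combo, while FLT3 and IL6R were lower in each. With everolimus added to quizartinib, no receptor was called in either medium in edgeR, limma voom or DESeq2. An unadjusted p under 0.05 was seen for 0 of 8. Of all genes, 0.00773% were called in RPMI and 0.240% in hBMSC-CM. The estimates were above 0 for 3 of 8 receptors in RPMI and for 6 of 8 in hBMSC-CM. Everolimus alone raised 1 of 8 over vehicle in hBMSC-CM (0.410% of all genes called), and combo raised 1 of 8 over everolimus alone (11.1%). Here the groups did not overlap for 5 and 3 of 8 receptors, against 27.7% and 45.9% of all genes.

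**Figure D2:**
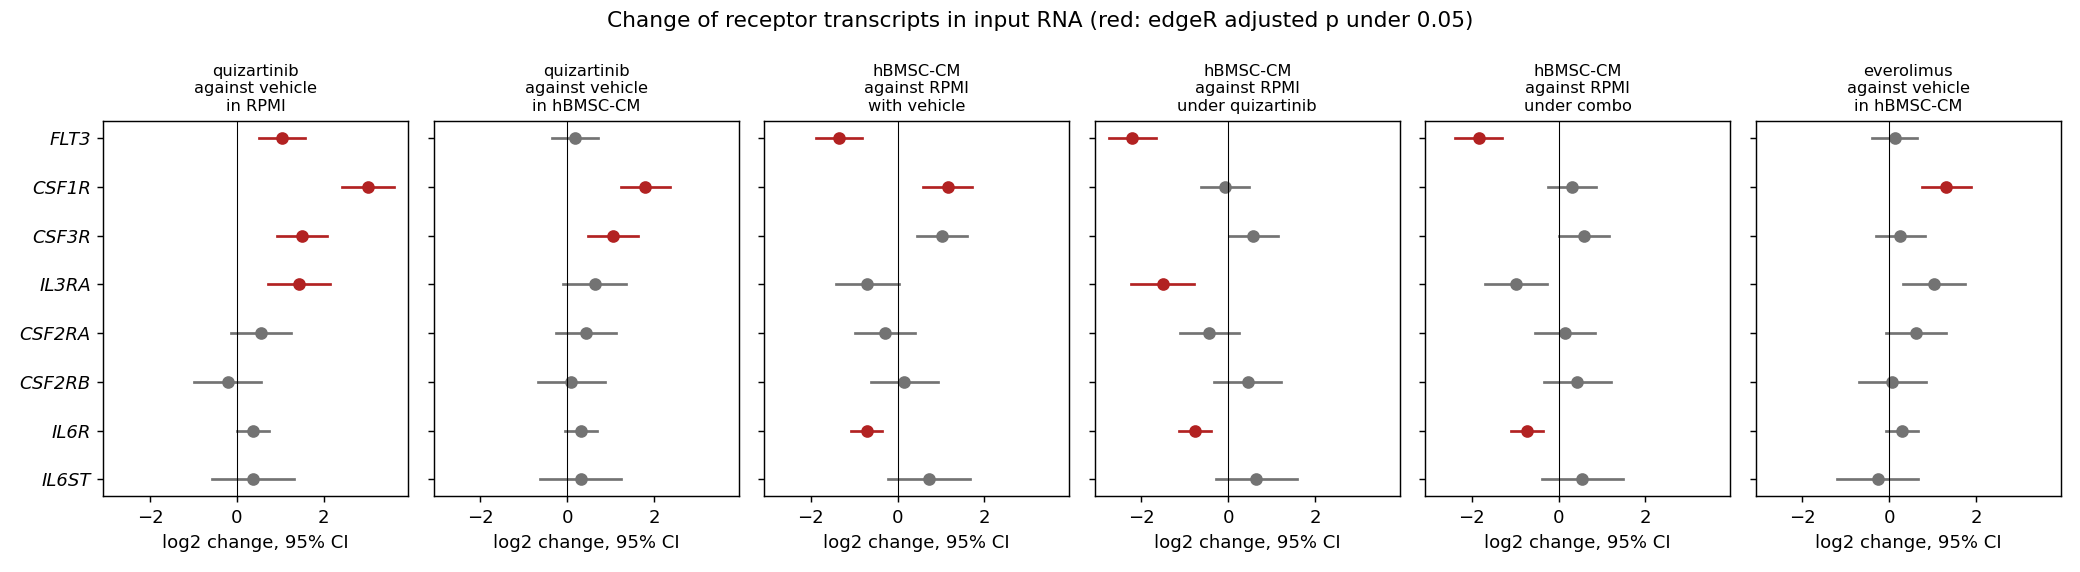
Log2 change (points) with its 95% confidence interval (bars) of the 8 receptors in input RNA for 6 comparisons, from the edgeR fit over all genes. Red marks an adjusted p under 0.05: 4 receptors for quizartinib in RPMI, 2 for quizartinib in hBMSC-CM, 3, 3 and 2 for hBMSC-CM against RPMI and 1 for everolimus.

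FLT3 rose relative to the other input messages upon its own inhibition in RPMI, and was lower in hBMSC-CM under every treatment that both media received. Its input level in RPMI was 147, 113 and 94.6 CPM with vehicle (replicates 1, 2 and 3) and 313, 247 and 176 CPM with quizartinib. The groups do not overlap, and the highest value of either group is that of replicate 1. The means differed 2.07-fold, with a log2 change of 1.05 (SE 0.26, 95% CI 0.52 to 1.58, edgeR adjusted p = 0.00168). With combo it was 264, 256 and 164 CPM, a change from quizartinib of -0.10 on the log2 scale (95% CI -0.63 to 0.42).

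In hBMSC-CM, FLT3 had 61.3, 50.7 and 27.6 CPM in input with vehicle, 65, 61.5 and 32.6 with quizartinib, 54.4, 52 and 46.1 with everolimus and 72, 79.5 and 39.1 with combo. These 4 groups overlap each other, and each lies below every RPMI group. The log2 change with quizartinib in hBMSC-CM was 0.19 (95% CI -0.34 to 0.71, edgeR adjusted p = 0.69), so that a rise as large as the 1.05 estimated in RPMI lies outside its interval. It was -0.08 without replicate 3 of hBMSC-CM with vehicle. The test of the difference between the 2 media gave -0.86 (SE 0.37, edgeR adjusted p = 0.364) and, in the blocked fit, -0.88 (SE 0.18, edgeR adjusted p = 0.00103).

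Against RPMI, FLT3 was lower in hBMSC-CM by 2.54-fold with vehicle, by 4.62-fold under quizartinib and by 3.59-fold under combo, as ratios of mean input CPM. It fell by 1.34 (SE 0.26, edgeR adjusted p = 0.00219), by 2.21 (SE 0.27, edgeR adjusted p = 3.06e-07) and by 1.84 (SE 0.27, edgeR adjusted p = 7.07e-06) on the log2 scale. Only the first depended on the alternatives run, and only on one: with the 6 libraries compared fitted alone it had an edgeR adjusted p of 0.0924.

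On heavy polysomes the FLT3 level, in TMM-scaled CPM, was again lower in hBMSC-CM. The ratio of quizartinib to vehicle in this level was larger than in input RNA in both media. The polysome level was 64.4, 58 and 60.5 CPM with vehicle in RPMI and 215, 201 and 262 CPM with quizartinib, a 3.71-fold ratio of means. In hBMSC-CM it was 27.9, 31.1 and 26.6 CPM with vehicle and 42.1, 42.9 and 43.1 CPM with quizartinib, a 1.5-fold ratio. With combo it was 248, 210 and 224 CPM in RPMI and 53.9, 46.4 and 46.2 in hBMSC-CM, and with everolimus 34.6, 32.7 and 24.6. In polysome RNA too, each hBMSC-CM library is below each RPMI library. The polysome level minus the input level of same-numbered libraries, in log2 CPM, was -1.19, -0.96 and -0.65 with vehicle in RPMI, and -0.54, -0.30 and 0.58 with quizartinib. The quizartinib change of FLT3 was larger in polysome than in input RNA by a log2 difference of 0.84 (SE 0.37, 95% CI 0.10 to 1.58), which did not pass (edgeR adjusted p = 0.254). The blocked fit gave 0.67 (SE 0.18, edgeR adjusted p = 0.0104), where it called 14% of all genes against 1.55% without the block. In hBMSC-CM the same value was 0.39 (95% CI -0.35 to 1.14, edgeR adjusted p = 1).

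CSF1R, the M-CSF receptor, had the largest change among the 8 tested receptors. Its input level with vehicle in RPMI was 9.44, 20 and 18.2 CPM, and with quizartinib 106, 152 and 130 CPM. All 3 treated libraries exceed the highest vehicle library, and the means differed 8.15-fold (log2 change 3.03, SE 0.29, edgeR adjusted p = 5.71e-10). In hBMSC-CM it was 27.5, 53.2 and 24.7 CPM with vehicle and 110, 143 and 113 CPM with quizartinib, again without overlap (log2 change 1.80, SE 0.28, edgeR adjusted p = 5.89e-05). Both calls held in all 17 alternatives run for each, including each left-out culture. CSF1R therefore reached a like level in both media upon quizartinib, with a difference of -0.08 between them on the log2 scale (edgeR adjusted p = 0.929), from unequal starting levels. With vehicle it was higher in hBMSC-CM by 1.15 (SE 0.28, edgeR adjusted p = 0.0202), a call that was lost without replicate 2 of hBMSC-CM with vehicle (0.72, edgeR adjusted p = 0.39), without replicate 1 of RPMI with vehicle (0.88, edgeR adjusted p = 0.248), with the libraries compared fitted alone (edgeR adjusted p = 0.271) and without everolimus alone (edgeR adjusted p = 0.0516).

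The smaller quizartinib effect on CSF1R in hBMSC-CM had a difference of -1.23 (SE 0.39, edgeR adjusted p = 0.11), or -1.44 (edgeR adjusted p = 0.0242) without replicate 3 of hBMSC-CM with vehicle, and -1.26 (SE 0.23, edgeR adjusted p = 2.59e-04) in the blocked fit. With combo CSF1R had 103, 155 and 149 CPM in RPMI and 142, 204 and 158 CPM in hBMSC-CM. Everolimus alone gave 87.1, 86.1 and 90.7 CPM, above every vehicle library of that medium and below every combo library. In the reported fit it was the only receptor called against vehicle (log2 change 1.32, SE 0.28, edgeR adjusted p = 0.0203), and the only one called in combo against everolimus (0.93, SE 0.27, edgeR adjusted p = 0.0214). The first was lost without any 1 of the 3 everolimus cultures (edgeR adjusted p from 0.0629 to 0.111), without replicate 1 (0.134) or 3 (0.103) of vehicle, and with the libraries compared fitted alone (0.0754). The second was lost without any 1 everolimus culture (edgeR adjusted p from 0.0732 to 0.0857) or replicate 2 of combo (0.126). IL3RA against vehicle (1.03, SE 0.36, edgeR adjusted p = 0.254) passed with no filter on low counts (0.0126) and with either replicate block (0.00168 and 2.01e-04). CSF3R in combo against everolimus (0.77, SE 0.28, edgeR adjusted p = 0.0753) passed in 7 of 15 alternatives, among them DESeq2 (0.047), library size only (0.0388) and only the libraries compared (0.00177).

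CSF1R was also richer in heavy polysomes than in input RNA in every condition. It had 55.2, 43.1 and 31.6 CPM in polysome RNA with vehicle in RPMI and 430, 404 and 330 with quizartinib, and in hBMSC-CM 117, 121 and 59.2 with vehicle and 451, 304 and 278 with quizartinib. The combo libraries had the highest polysome levels, 507, 442 and 430 CPM in RPMI and 636, 543 and 478 in hBMSC-CM, and those of everolimus alone had 170, 179 and 168 CPM. Polysome minus input was above 0 in 21 of 21 pairs (0.80 to 2.54 in log2 CPM). It was 0.97, 1.05 and 0.89 with everolimus alone, the condition with the lowest fitted value (0.97, SE 0.27, against 1.45 to 1.76 in the other 6), but the difference from vehicle was -0.52 (SE 0.39, edgeR adjusted p = 1) and combo minus everolimus was 0.74 (SE 0.38, edgeR adjusted p = 0.781).

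KIT, the stem cell factor receptor, was low throughout, and near the floor with vehicle in RPMI. Its counts ran from 0 to 79 over the 42 libraries and were 0 in 9 of them. In input RNA of RPMI it had 1, 6 and 3 counts with vehicle (0.0252, 0.172 and 0.101 CPM) and 12, 43 and 79 counts with quizartinib (0.329, 1.09 and 2.15 CPM). The groups do not overlap, and in a fit of 33530 genes with no filter on low counts the log2 change was 3.56 (SE 1.08, edgeR adjusted p = 0.011), a fitted value that depends on the prior count. With combo it had 2.04, 0.878 and 0.981 CPM. In hBMSC-CM it had 0, 0.319 and 0 CPM with vehicle and 0.642, 0.331 and 0.31 with quizartinib. Polysome levels of KIT were 0 to 0.862 CPM.

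IL3RA, the IL-3 binding chain, rose upon quizartinib in RPMI. Its input level there was 34.2, 58.9 and 47.6 CPM with vehicle, 106, 146 and 130 with quizartinib and 103, 132 and 108 with combo. No treated library reached down to the vehicle libraries (quizartinib log2 change 1.44, SE 0.36, edgeR adjusted p = 0.00177, called in all 17 alternatives run). In hBMSC-CM it was 16.9, 40.7 and 28.9 CPM with vehicle, 33.7, 62.7 and 37.5 with quizartinib, 57.5, 61 and 57.9 with everolimus and 38.9, 82 and 53 with combo. There the vehicle and quizartinib groups overlap, replicate 2 is the highest of each, and the log2 change was 0.63 (SE 0.35, edgeR adjusted p = 0.257), or 0.69 (SE 0.16, edgeR adjusted p = 9.14e-04) in the blocked fit. The difference between the media was -0.81 (SE 0.50, edgeR adjusted p = 0.687), and -0.86 (SE 0.22, edgeR adjusted p = 0.00851) in the blocked fit.

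Between the media, IL3RA was lower in hBMSC-CM under quizartinib, where the log2 change was -1.51 (SE 0.36, edgeR adjusted p = 0.0044, called in all 17 alternatives run). The groups do not overlap, with 62.7 CPM the highest in hBMSC-CM and 106 CPM the lowest in RPMI. With vehicle the change was -0.70 (SE 0.35, edgeR adjusted p = 0.693) and under combo -0.98 (SE 0.35, edgeR adjusted p = 0.122), the latter passing without replicate 2 of hBMSC-CM combo (-1.32, edgeR adjusted p = 0.036). In the blocked fit these were -0.75 (edgeR adjusted p = 0.00155) and -1.09 (edgeR adjusted p = 2.17e-06).

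CSF2RA is the GM-CSF binding chain next to IL3RA on the chromosome, and CSF2RB the beta chain that both signal through. Upon quizartinib in RPMI both changed less than IL3RA. CSF2RA had 28.8, 28.9 and 24 CPM in input with vehicle in RPMI and 38.3, 41.2 and 40.9 with quizartinib, without overlap, yet the log2 change of 0.56 (SE 0.34) did not pass (edgeR adjusted p = 0.21). It did in the blocked fit, with 0.64 (SE 0.14, edgeR adjusted p = 2.4e-04). In hBMSC-CM it had 20.3, 24.9 and 21.1 CPM with vehicle and 29, 31.9 and 28.7 with quizartinib (log2 change 0.43, edgeR adjusted p = 0.45, and 0.47 with an edgeR adjusted p of 0.00981 in the blocked fit). With everolimus alone CSF2RA had 31.1 to 35.7 CPM there, above every vehicle library (ratio of means 1.53), and with combo 34.8 to 43.5. The everolimus change was not called in the reported fit. The blocked fit also placed CSF2RA lower in hBMSC-CM than in RPMI under quizartinib (-0.48, edgeR adjusted p = 0.0106). CSF2RB stayed between 4.93 and 12.6 CPM in all 21 input libraries and passed in none of the 10 input comparisons, in the fit without the block or in any alternative run. In RPMI it had 9.67, 8.53 and 5.45 CPM with vehicle and 7.93, 7.13 and 5.4 with quizartinib (log2 change -0.21, 95% CI -0.98 to 0.56), so that a change of the size seen in IL3RA lies outside its interval.

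CSF3R, the G-CSF receptor of granulocytes, rose upon quizartinib in both media. In RPMI the input level was 103, 153 and 145 CPM with vehicle, 272, 405 and 458 with quizartinib and 265, 414 and 422 with combo. In hBMSC-CM it was 245, 320 and 250 CPM with vehicle, 488, 603 and 608 with quizartinib, 322, 328 and 327 with everolimus and 471, 589 and 603 with combo. Vehicle and quizartinib libraries do not overlap within either medium. The quizartinib log2 change was 1.50 in RPMI (SE 0.29, edgeR adjusted p = 8.71e-05) and 1.06 in hBMSC-CM (SE 0.28, edgeR adjusted p = 0.0118, and 0.056 without replicate 1 of hBMSC-CM with vehicle). With vehicle, each hBMSC-CM library exceeds each RPMI library, but the difference of 1.02 (SE 0.28) missed the threshold (edgeR adjusted p = 0.0613). It passed in the blocked fit (1.03, edgeR adjusted p = 4.4e-07), in the other replicate blocks, in DESeq2 (1.04, adjusted p = 0.0239), with library size only (0.0211), with no filter (0.00601) and with the stricter filter (0.0324). Under quizartinib it was 0.58 (edgeR adjusted p = 0.263, and 0.55 with 0.0015 in the blocked fit) and under combo 0.59 (edgeR adjusted p = 0.361, and 0.57 with 0.00129 in the blocked fit). The estimates for CSF3R and FLT3 between the media thus had opposite signs.

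IL6R, the IL-6 binding chain, was lower in hBMSC-CM than in RPMI under each treatment. Its input level was 167, 148 and 135 CPM with vehicle in RPMI, 220, 208 and 156 with quizartinib and 221, 186 and 151 with combo. In hBMSC-CM it was 101, 109 and 64.5 CPM with vehicle, 118, 130 and 94.9 with quizartinib, 114, 114 and 110 with everolimus and 110, 132 and 95.5 with combo. For each treatment given in both media, the 2 groups do not overlap. The fall was by 0.71 with vehicle (SE 0.18, edgeR adjusted p = 0.03), by 0.77 under quizartinib (SE 0.18, edgeR adjusted p = 0.00393) and by 0.73 under combo (SE 0.18, edgeR adjusted p = 0.00872). The first was lost in 7 alternatives (edgeR adjusted p from 0.0599 to 0.318), among them those without replicate 3 of hBMSC-CM with vehicle (-0.49, 0.318) and without replicate 1 (-0.63, 0.219) or 2 (-0.73, 0.095) of RPMI with vehicle. The second was lost without replicate 3 of hBMSC-CM with quizartinib (-0.65, 0.0517), and the third without replicate 3 of hBMSC-CM combo (-0.62, 0.0829) or replicate 1 of RPMI combo (-0.58, 0.109), with no filter on low counts (-0.72, 0.102) and with only the libraries compared (-0.71, 0.0502).

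Upon quizartinib the input log2 change of IL6R was 0.38 in RPMI (SE 0.18, edgeR adjusted p = 0.104, and 0.50 with 0.0444 without replicate 3 of RPMI with quizartinib) and 0.32 in hBMSC-CM (edgeR adjusted p = 0.254). The blocked fit called both, with 0.44 (SE 0.12, edgeR adjusted p = 0.00154) and 0.37 (edgeR adjusted p = 0.012). On polysomes in RPMI it had 111, 124 and 127 CPM with vehicle and 244, 280 and 232 CPM with quizartinib. Polysome minus input of same-numbered libraries was -0.59, -0.26 and -0.09 with vehicle, and 0.15, 0.43 and 0.57 with quizartinib. On this scaling the sign turned in each replicate. It rests on the TMM factors, with quizartinib 0.879, 0.83 and 1.04 in polysome and 1.07, 1.18 and 1.18 in input libraries. Without them the sign would not turn in each replicate. The test of the difference between quizartinib and vehicle gave 0.69 (SE 0.25, 95% CI 0.17 to 1.20, edgeR adjusted p = 0.171), and 0.50 (SE 0.16, edgeR adjusted p = 0.0359) in the blocked fit. IL6R and FLT3 were the only receptors with an unadjusted p under 0.05 in this comparison, or called in it by the blocked fit.

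IL6ST, the shared signal chain gp130, was the lowest of the 8 tested receptors, at 1.96 to 10 CPM in input. In RPMI it had 4.34, 4.42 and 2.91 CPM with vehicle and 7.98, 5.29 and 1.96 with quizartinib, which overlap (log2 change 0.38, SE 0.46, edgeR adjusted p = 0.563). In hBMSC-CM it had 7.47, 6.41 and 5.36 CPM with vehicle and 9.89, 7.83 and 6.11 with quizartinib. With vehicle each hBMSC-CM library exceeds each RPMI library (ratio of means 1.65). Combo in hBMSC-CM gave 7.28 to 10 CPM and everolimus alone 5.21 to 5.43 (ratio of means 1.67). Neither difference was called in the reported fit. IL6ST was much poorer in heavy polysomes, with 0.905, 0.401 and 0.836 CPM (19, 11 and 19 counts) with vehicle in RPMI. It was below its input level in 21 of 21 pairs (-3.27 to -0.69 in log2 CPM).

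Heavy polysome RNA was set against input RNA within each of the 7 conditions to show which receptor messages were more or less abundant among those loaded with ribosomes. Of the 8 receptors, 5, 3 and 3 passed in RPMI with vehicle, quizartinib and combo, where 65.4%, 57.9% and 59.3% of all genes did. In hBMSC-CM 4, 3, 5 and 4 passed with vehicle, quizartinib, everolimus and combo, where 63.6%, 58.7%, 58.6% and 63.0% of all genes did. These shares of receptors are at or below those of all genes in all but everolimus alone. The blocked fit called 6, 6 and 6 of 8 in RPMI, against 75.1%, 72.0% and 71.5% of all genes, and 6, 5 and 5 in hBMSC-CM with vehicle, quizartinib and combo, against 74.5%, 71.7% and 74.5%, so that the shares stay close to the background. CSF1R (0.97 to 1.76 on the log2 scale) and IL3RA (1.03 to 1.30) were higher in polysome RNA in all 7 conditions and IL6ST (-2.46 to -1.83) lower in all 7. The IL3RA calls depended on the scaling, since with scaling by library size only 5 of the 7 were lost (0.58 to 0.77, edgeR adjusted p from 0.0538 to 0.141). They were also lost without replicate 2 of RPMI with quizartinib (0.97, 0.0683), without replicate 2 of hBMSC-CM with vehicle (0.89, 0.0515) and, for everolimus, without any 1 of its cultures (edgeR adjusted p from 0.0582 to 0.0688).

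FLT3 was lower in polysome than in input RNA with vehicle in RPMI (-0.96, edgeR adjusted p = 0.00185), with vehicle in hBMSC-CM (-0.71, edgeR adjusted p = 0.0185) and with everolimus (-0.73, edgeR adjusted p = 0.0163). The second was lost without replicate 1 (-0.44, 0.236) or 2 (-0.71, 0.0688) of that group, with only the libraries compared (-0.71, 0.0634) and with everolimus alone left out (-0.56, 0.0748), and the third without everolimus replicate 2 (-0.76, 0.0562) or 3 (-0.66, 0.0924). In the 4 conditions with quizartinib it was -0.12 (RPMI) and -0.31 (hBMSC-CM) with quizartinib alone and -0.00 and -0.38 with combo, none of which passed. In the blocked fit the last one did (-0.32, edgeR adjusted p = 0.0255). Over all conditions, FLT3 was below its input level in 17 of 21 pairs. CSF3R passed with vehicle in RPMI (0.82, edgeR adjusted p = 0.0118) and combo in hBMSC-CM (0.63, edgeR adjusted p = 0.0493), the first lost without replicate 1 (0.68, 0.0982) or 2 (0.76, 0.0629) and the second without replicate 1 (0.47, 0.252) or 2 (0.41, 0.32). With library size only they were 0.25 (0.411) and 0.19 (0.546), and the second was lost in 9 of 15 alternatives, limma voom (0.59, 0.0678) and RLE scaling (0.63, 0.0568) among them. CSF2RB passed with everolimus alone (0.87, edgeR adjusted p = 0.0496), at 16.9, 17 and 16.6 CPM in polysome and 7.2, 11.3 and 9.23 in input RNA, and was lost without any 1 of these cultures (edgeR adjusted p from 0.0767 to 0.226).

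**Figure D3:**
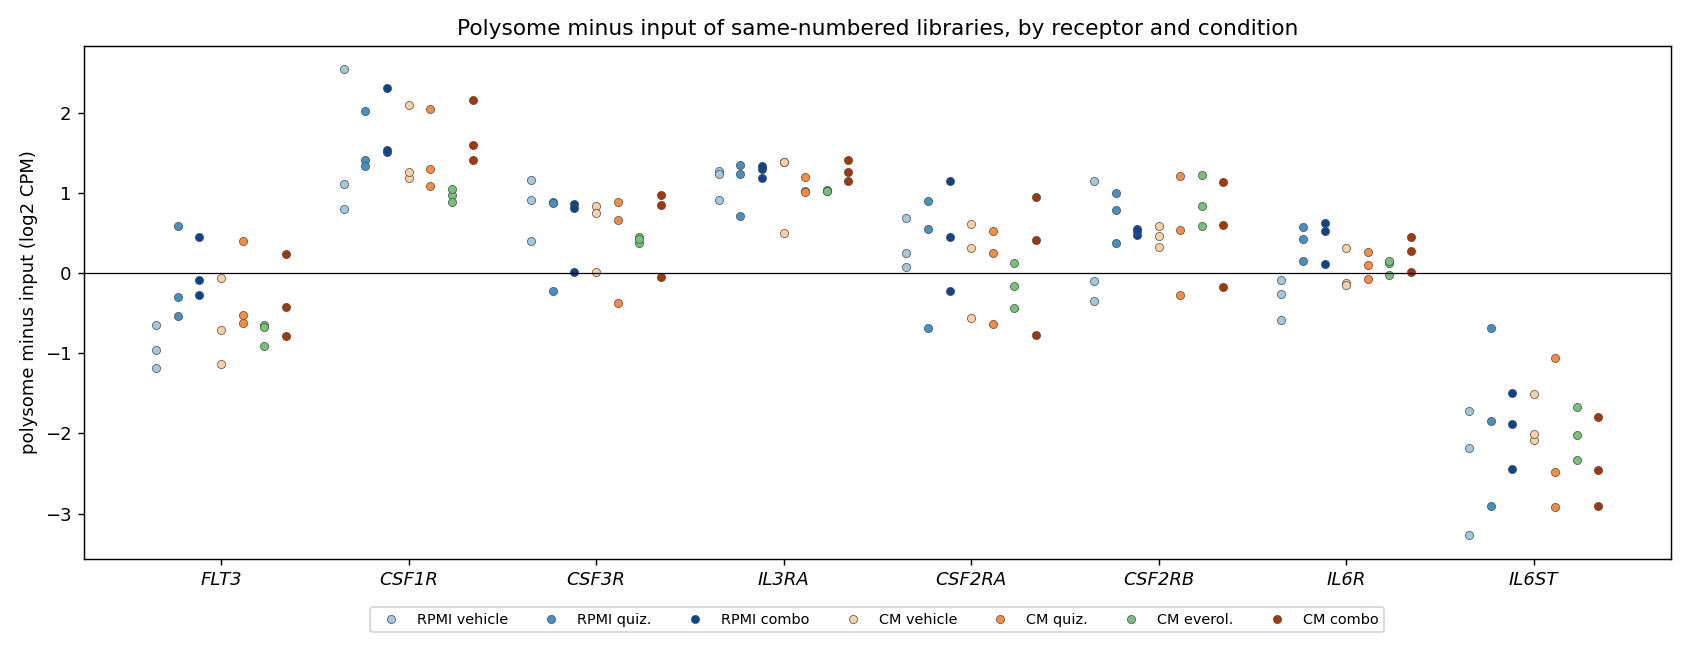
Polysome minus input level (log2 CPM) of same-numbered libraries, 3 points for each of the 7 conditions and 8 receptors. CSF1R and IL3RA lie above 0 in 21 of 21 pairs, IL6ST below 0 in 21 of 21, and FLT3 below 0 in 17 of 21, with its lowest values with vehicle.

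Whether treatment or medium changed the receptors differently in polysome than in input RNA was tested in 10 comparisons. No receptor passed in any of them, in edgeR, limma voom or DESeq2. An unadjusted p under 0.05 was seen for 2 receptors (FLT3 and IL6R, above) for quizartinib in RPMI and for 0 in the other 9 comparisons. Of all genes, 1.55% were called for quizartinib in RPMI and 0% in each of the other 9 by edgeR, in which 93 to 875 genes had an unadjusted p under 0.05 and limma voom called 0 and DESeq2 0 to 20. The polysome differences of CSF1R, IL3RA and IL6ST were thus a feature of each condition, with no change between conditions that was detectable with 3 replicates.

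Among the 8637 genes whose mean input level was 10 CPM or more, the 5 whose log2 CPM was most alike to that of FLT3 over the 21 input libraries were ADCY9 (Pearson r = 0.969), BCL7A (0.962), IL6R (0.956), RHOBTB2 (0.95) and TIFA (0.946). Spearman's rho was 0.945, 0.955, 0.952, 0.887 and 0.904. Because FLT3 splits the libraries by medium, the values within each medium are given too: for IL6R r was 0.928 over the 9 RPMI libraries and 0.84 over the 12 of hBMSC-CM, for ADCY9 0.954 and 0.924, and for TIFA 0.887 and 0.68. For the other receptors the pooled r with FLT3 was 0.716 (IL3RA), 0.485 (KIT), 0.412 (CSF2RA), 0.123 (CSF1R), -0.149 (CSF2RB), -0.186 (IL6ST) and -0.22 (CSF3R). These are descriptions over libraries that share conditions, replicate numbers and scaling. IL6R had 64.5 CPM in the library with the lowest FLT3 (27.6 CPM) and 220 CPM in that with the highest (313 CPM).

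**Figure D4:**
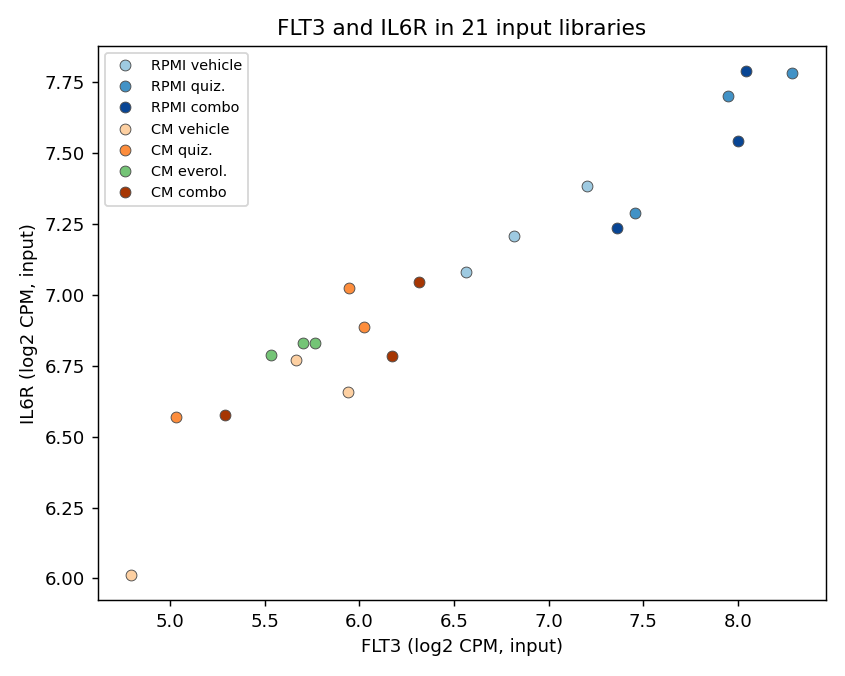
IL6R against FLT3, both in log2 CPM, in the 21 input libraries, coloured by condition. The RPMI libraries (blue) lie to the upper right of the hBMSC-CM libraries (orange, and green for everolimus alone), and within each medium IL6R is higher where FLT3 is (r = 0.928 and 0.84).

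Other receptors, ligands and signal proteins of the same pathways were taken from lists chosen with earlier results of these data known. Of 39 other cytokine and chemokine receptors, 23 were tested. Upon quizartinib 6 rose and 1 fell in RPMI, and 6 rose and none fell in hBMSC-CM, with medians of 0.39 and 0.52 on the log2 scale (all genes 0.08 and 0.01). That is 30.4% and 26.1% of the list called, against 34.6% and 12.3% of all genes. IL10RA, the IL-10 binding chain, rose by 2.81 (SE 0.38, edgeR adjusted p = 3.31e-07) and 1.88 (SE 0.36, edgeR adjusted p = 6.68e-04), with mean levels of 4.78 (vehicle) and 33.5 CPM in RPMI, and 19.6 and 72.1 CPM in hBMSC-CM. IL13RA1, a chain of the IL-13 receptor, rose by 1.87 and 1.01, IL15RA, the IL-15 binding chain, fell by 2.07 in RPMI (2.1 to 0.5 CPM), and TNFRSF1B, a TNF receptor, rose by 0.79 in hBMSC-CM. In hBMSC-CM against RPMI, 3, 9 and 9 of the 23 rose with vehicle, quizartinib and combo and none fell (13%, 39.1% and 39.1% of the list, against 1.51%, 8.16% and 5.36% of all genes), in contrast to FLT3 and IL6R. IL7R, the IL-7 receptor, rose most (3.54, 5.38 and 5.10), at 0.65 ± 0.255 and 7.53 ± 0.918 CPM with vehicle in RPMI and hBMSC-CM. IL10RA and IL4R, the IL-4 receptor, rose by 2.03 and 1.03 with vehicle, IL15RA by 3.41 and 4.05 and CRLF2, the TSLP receptor, by 3.60 and 3.99 under quizartinib and combo. In combo against everolimus 6 rose and 1 fell (30.4%, against 11.1% of all genes), led by IL10RA (1.62), CXCR4, the CXCL12 receptor (0.88), and IL13RA1 (0.77). None passed in edgeR for the difference between media, for combo against quizartinib or for everolimus against vehicle.

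Of 11 ligands of these receptors, only OSM (oncostatin M), an IL-6 family cytokine that signals through IL6ST, had enough counts to be tested. It had 6.32 ± 0.826 CPM with vehicle in RPMI and 44 ± 20.1 in hBMSC-CM, and 3.32 ± 1.76 and 77.2 ± 33.3 with quizartinib, and was higher in hBMSC-CM by 2.80 with vehicle (edgeR adjusted p = 4.32e-05), 4.54 under quizartinib and 4.63 under combo. Of 16 adaptors, kinases and phosphatases that act at these receptors, 15 were tested. In RPMI 5 rose upon quizartinib, among them the ubiquitin ligase CBLB (1.82) and the kinase SRC (1.45), and 2 fell, the phosphatases PTPN6 (-0.96, from 308 to 159 CPM) and PTPN11 (-0.79), 46.7% of the list against 34.6% of all genes. In hBMSC-CM 4 rose and none fell, among them CBLB (1.59) and the kinase FES (1.06), 26.7% against 12.3%. Between media 0, 1 and 3 of the 15 rose with vehicle, quizartinib and combo (0%, 6.67% and 20%, against 1.51%, 8.16% and 5.36% of all genes). PTPN6 rose by 0.78 and 0.82 under quizartinib and combo, and the adaptor GAB2 by 0.82 under combo. In combo against everolimus 3 rose, among them CBLB (0.97) and GAB2 (0.74), 20% against 11.1%. Of the 2 proteases that shed such receptors from the surface, ADAM17 rose upon quizartinib in RPMI (0.72, edgeR adjusted p = 0.0305) and neither passed in another input comparison. No gene of these lists passed in the comparisons of polysome relative to input.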

How the data were processed

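RNA of MOLM-13 cells was sequenced by the study as poly(A) libraries in paired ends. Per the submitters' processing notes and the study's methods, the authors trimmed reads with BBDuk, aligned them to hg38 with STAR 2.6.0a and counted reads per gene. Strand use in counting is not given in the sources used here. The deposited file holds raw counts of 58884 gene rows for 42 libraries, of which 25133 rows are empty. It has no molecular identifiers, so the floor of 3 counts covers counting error only.

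Rows that share a name (150 names) were summed. A gene was tested where its count and its CPM both averaged 1 or more over all libraries (12939 genes, 99.8% of counts). The fit was edgeR 4.0.16 (R 4.3.3) with TMM factors, 14 group means, robust quasi-likelihood and no block, at a Benjamini-Hochberg adjusted p under 0.05, in 10 comparisons of input, the same 10 of polysome relative to input (interaction terms) and 7 of polysome against input. Log2 CPM used a prior count of 2. The script was tested on simulated data. With 3 against 3, an exact permutation test of a single value cannot go under 0.1, so none is given.

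Groups came from the labels' titles and characteristics. The members and lists were chosen with earlier results of these data known. Of each list, at most 3 called genes with the largest log2 change were named per comparison, and the 5 genes most like FLT3 by Pearson r. Some genes of these lists are not reported here. The labels do not say that same-numbered input and polysome libraries came from 1 culture. The pairing check was the correlation, over genes, of deviations from the group means between same-numbered libraries, counted as paired where all 3 exceeded 0.1. It held in 15 of the 21 pairs of conditions in each fraction, those without everolimus alone, and in 3 of 7 between input and polysome.

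Alternatives were limma 3.58.1 voom, DESeq2 1.42.0, RLE and library size scaling, no filter, a filter at 10 CPM, only the libraries compared, replicate blocks and each of 21 cultures left out. Genomic positions are from GENCODE release 44, and promoter windows from RefSeq.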

Additional observations from a re-analysis of the deposited data

How the results depend on the processing

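Over all alternatives, 400 of 457 counts of receptors called stayed within 1.5 times the reported count, and of 993 values of single receptors 875 kept direction and call, 62 lost the call, 55 gained it and 1 reversed, the FLT3 change with quizartinib in hBMSC-CM (-0.08 without hBMSC-CM vehicle replicate 3, to 0.44 over the 6 cultures left out in turn). The 2 alternatives without everolimus alone were chosen after seeing the data. For the other changes the cause was not tested, beyond the smaller spread under a block and the fewer samples under a left-out library. Depth limits KIT and the polysome values of IL6ST.

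With the replicate block within each fraction, the counts of receptors called were 4 (quizartinib in hBMSC-CM), 5 (hBMSC-CM against RPMI with vehicle), 4 (the same under combo), 3 (difference between media), 2 (everolimus against vehicle), 2 (combo against everolimus), 2 (quizartinib in RPMI, polysome relative to input), and 6 and 6 (polysome against input with quizartinib and combo in RPMI). For the first 7 of these, the same fit called 29.4%, 4.52%, 10.6%, 6.77%, 5.22%, 25.4% and 11.7% of all genes, and 69.2% and 69.3% for the last 2. With everolimus alone also left out they were 5, 5, 4, 3 and 2 for those shared, 5 for hBMSC-CM against RPMI under quizartinib, 6 and 6 for polysome against input with quizartinib and combo in RPMI and 5 with quizartinib in hBMSC-CM. A plain replicate block gave 5 (hBMSC-CM against RPMI with vehicle), 1 (difference between media), 2 and 2 (everolimus against vehicle, combo against everolimus), 1 (quizartinib in RPMI, polysome relative to input), and 5 and 5 (polysome against input with quizartinib and combo in RPMI), and the culture as replicate block 5 for polysome against input with quizartinib in RPMI. Between input and polysome the check held in 3 of 7 conditions, RPMI with vehicle (lowest correlation 0.133), RPMI with quizartinib (0.161) and hBMSC-CM with vehicle (0.181). With everolimus alone it did not hold. In comparisons across the fractions or with everolimus alone the block is therefore only a hint. The block changed no other call than those given here or beside the results.

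Only the libraries compared gave 0 (hBMSC-CM against RPMI with vehicle), 1 (under combo), 0 (everolimus against vehicle) and 3 (combo against everolimus). No filter gave 1 (difference between media), 2 (everolimus against vehicle) and 2 (combo against everolimus). DESeq2, library size only and the stricter filter gave 2, 2 and 2 for combo against everolimus, library size only 3 and the stricter filter 2 for polysome against input with everolimus, and everolimus alone left out 1 for hBMSC-CM against RPMI with vehicle. Leaving out 1 culture gave 1 to 2 (quizartinib in hBMSC-CM), 1 to 3 (hBMSC-CM against RPMI with vehicle), 1 to 3 (under combo), 0 to 1 (difference between media), 0 to 1 (everolimus against vehicle), 0 to 1 (combo against everolimus), 2 to 5 (polysome against input with vehicle in hBMSC-CM) and 2 to 3 (with everolimus).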
